A study of Mus musculus with 6 samples.

Results

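The extracellular matrix genes Tnc, Fn1, Postn, Sparc, Spp1, Thbs2, Thbs4, Fibin and Lox were followed through a single-cell dataset, 9 of 31053 genes measured. They were found by symbol in the feature tables, and 9 of 9 were present. They had been chosen by measured values of these same cells: their levels in fibroblast-like and melanoma-like cells and, for Tnc and Fibin, the difference between the groups in melanoma-like cells. Those values are therefore given as a description, with no test. The material was labelled as coming from YUMM2.1, a mouse melanoma cell line, and the series title concerns how the circadian transcription factor Bmal1 alters melanoma plasticity and immunity. The groups were labelled Empty vector and Bmal1 WT, with 3 hashtag replicates each (Empty vector h1, h7 and h8, and Bmal1 WT h3, h5 and h9), and differed in the vector named. Neither age, strain, treatment nor the origin of the cells in culture or tissue was given in the labels. Nothing in the labels said that replicates were separate animals or cultures, so p-values measure only the spread between these samples, which may be technical.

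The matrix is not only a scaffold. Matricellular proteins, among them tenascin C (Tnc), periostin (Postn), SPARC (Sparc), osteopontin (Spp1) and the thrombospondins (Thbs2, Thbs4), are secreted into it and bind cell surface receptors such as integrins and CD44 without being main structural fibres. Fibronectin (Fn1) is a fibre-forming glycoprotein on which cells anchor, and lysyl oxidase (Lox) is the enzyme that crosslinks collagen and elastin. In tumours these genes are best known from stromal fibroblasts, while osteopontin and fibronectin are also made by macrophages. Fibin is a small secreted protein first described in fin bud development, and its role in tumours is less well known.

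The Empty vector library held 3978 cells after filtering (median 5094 UMIs, unique molecular identifiers that count captured transcripts once) and the Bmal1 WT library 2386 cells (median 7570.5 UMIs). Of these, 3222 and 1621 cells carried exactly 1 hashtag, and 5 barcodes occurred in both libraries. All 3 replicates of a group came in 1 deposited library, and a difference between groups cannot be told apart from one between libraries. Classes were called from marker genes: 130 Empty vector and 194 Bmal1 WT cells were fibroblast-like, 122 and 321 melanoma-like and 601 and 360 macrophage-like, while 369 cells met the rule of more than 1 class. Melanoma-like cells had Sox10 at 159 CPM (CPM scales a gene's UMIs to a fixed total of the summed cells) and S100b at 369 CPM, but the pigment genes Mlana and Tyrp1 had 0 UMIs and Dct had 4. Fibroblast-like cells had Dcn at 6652 CPM and Lum at 2522 CPM, against 2.03 and 1.18 CPM in melanoma-like cells. Macrophage-like cells had Csf1r at 460 CPM. Arntl, the gene that encodes Bmal1, stood at 71.5 CPM ± 27.9 (SD, n = 3) in melanoma-like cells of Empty vector and 57.3 CPM ± 7.25 (n = 3) in those of Bmal1 WT. Reads from the 3′ end of endogenous Arntl need not count a transcript carried by a vector, so this does not check the labels.

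The windows around the transcription start of 4 members are shown because Tnc, Postn and Thbs2 were all higher in melanoma-like cells with Sox10 and Spp1 in macrophage-like cells with Arg1, as described further on. They run from 250 bases before to 50 bases after the start and come from RefSeq (GRCm38.p6), which matched 7 of the 9 genes. Capitals mark TATAAA, searched on both strands, so that TTTATA in the Thbs2 window is the same motif on the other strand. The windows lie at chr4:64046966-64047265 (Tnc, minus strand), chr3:54360857-54361156 (Postn, plus strand), chr17:14694213-14694512 (Thbs2, minus strand) and chr5:104434861-104435160 (Spp1, plus strand), and each is written 5′ to 3′ on the strand of its gene.
Tnc: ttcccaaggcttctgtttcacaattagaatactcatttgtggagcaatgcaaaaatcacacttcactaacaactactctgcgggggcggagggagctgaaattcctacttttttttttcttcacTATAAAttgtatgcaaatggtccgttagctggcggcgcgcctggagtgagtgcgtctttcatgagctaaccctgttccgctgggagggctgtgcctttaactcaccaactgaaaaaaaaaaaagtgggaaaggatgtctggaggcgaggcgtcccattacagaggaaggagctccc
Postn: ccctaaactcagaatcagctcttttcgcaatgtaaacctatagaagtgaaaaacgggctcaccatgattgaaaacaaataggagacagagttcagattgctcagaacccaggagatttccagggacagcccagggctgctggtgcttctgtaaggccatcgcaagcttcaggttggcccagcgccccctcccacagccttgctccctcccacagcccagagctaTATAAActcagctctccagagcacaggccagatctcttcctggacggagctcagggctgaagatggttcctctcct
Thbs2: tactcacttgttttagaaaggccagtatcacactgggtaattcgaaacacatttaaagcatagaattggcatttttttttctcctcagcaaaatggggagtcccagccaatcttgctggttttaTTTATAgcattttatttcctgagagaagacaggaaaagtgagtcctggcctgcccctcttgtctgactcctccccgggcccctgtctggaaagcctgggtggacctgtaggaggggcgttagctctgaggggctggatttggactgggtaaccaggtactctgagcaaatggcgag
Spp1: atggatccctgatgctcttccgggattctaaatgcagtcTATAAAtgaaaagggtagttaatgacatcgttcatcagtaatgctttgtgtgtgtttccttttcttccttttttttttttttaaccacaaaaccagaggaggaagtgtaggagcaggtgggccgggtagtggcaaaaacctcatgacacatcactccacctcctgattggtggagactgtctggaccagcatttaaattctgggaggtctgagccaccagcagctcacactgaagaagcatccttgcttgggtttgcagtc
TATAAA stood at -26 from the start in Postn, -126 in Tnc and Thbs2 and -211 in Spp1. It occurred in 5 of 10 windows of the 7 matched members (Postn, Spp1, Thbs2 and Tnc) and in 13.6% of 32851 mouse windows. CACGTG, the E-box letters that the Bmal1 partner complex is known to bind, occurred in 0 of 10 member windows and 7.15% of all windows. TGANTCA, the AP-1 letters, occurred in 0 of 10 and 7.81%. A match or its absence describes these letters in these windows only.

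In the mouse assembly GRCm38 the genes lie on 9 different chromosomes, and UMIs were counted per gene from 3′ reads. They are at chr4:63959785-64047015 (Tnc, minus strand), chr1:71585520-71653200 (Fn1, minus), chr3:54361109-54391037 (Postn, plus), chr11:55394500-55423183 (Sparc, minus), chr5:104435118-104441050 (Spp1, plus), chr17:14665500-14694235 (Thbs2, minus), chr13:92751590-92794818 (Thbs4, minus), chr2:110360917-110363183 (Fibin, minus) and chr18:52516067-52529867 (Lox, minus). Fn1 overlaps the antisense gene Apol7d, which had 65 UMIs against 121264 for Fn1.

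The genes sorted into 4 patterns by the class that held them. Thbs4 and Lox belonged to fibroblast-like cells, and Tnc, Postn, Sparc, Thbs2 and Fibin were shared between fibroblast-like and melanoma-like cells. Fn1 was high in these and in macrophage-like cells. In CPM of summed cells, Spp1 was highest in melanoma-like cells. The levels below are per library and rest on cells with and without a hashtag. They are a description, since the source class was known when the genes were chosen.

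Thbs4, a thrombospondin of tendon and muscle matrix, had 1882 CPM in fibroblast-like cells of Empty vector and 1344 CPM in those of Bmal1 WT. In melanoma-like cells it had 0 and 0.19 CPM. Fibroblast-like cells held 96.9% of all Thbs4 UMIs. When cells were thinned to 3000 UMIs, so that classes of different depth could be compared, Thbs4 was found in 81.8% of 269 fibroblast-like cells and in 0 of 386 melanoma-like cells, where a count of 0 (read as at most 3 counts) allows up to 0.777% of cells with a Thbs4 UMI at this depth and sets no limit on cells that express it.

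Lox, the crosslinking enzyme, followed the same pattern at 401 CPM (Empty vector) and 380 CPM (Bmal1 WT) in fibroblast-like cells, against 0.18 and 0.19 CPM in melanoma-like cells. Fibroblast-like cells held 90.9% of its UMIs and 8.01% lay in cells of no class. Lox was found in 36.8% of thinned fibroblast-like cells (95% interval 31.0 to 42.9), against 81.8% for Thbs4.

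Postn, a matricellular ligand of integrins, reached 1918 CPM (Empty vector) and 2982 CPM (Bmal1 WT) in fibroblast-like cells. In melanoma-like cells it stood at 322 and 208 CPM. Sparc, a collagen-binding glycoprotein, reached 7243 and 6649 CPM in fibroblast-like cells and 1201 and 1523 CPM in melanoma-like cells. It was found in 97.4% of thinned fibroblast-like cells and in 80.1% of thinned melanoma-like cells.

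Tnc, an anti-adhesive hexameric glycoprotein, had 777 CPM (Empty vector) and 929 CPM (Bmal1 WT) in fibroblast-like cells, against 393 and 199 CPM in melanoma-like cells. Thbs2 had 583 and 579 CPM in fibroblast-like cells and 173 and 200 CPM in melanoma-like cells. Melanoma-like cells held nearly as many Tnc UMIs (47.3%) as fibroblast-like cells (47.6%) and more Thbs2 UMIs (51.4% against 44.9%). Fibin stood at 60.5 and 57.6 CPM in fibroblast-like cells and 66.0 and 29.1 CPM in melanoma-like cells.

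Fn1, the fibronectin gene, had 5889 CPM (Empty vector) and 4629 CPM (Bmal1 WT) in fibroblast-like cells, 2042 and 2283 CPM in melanoma-like cells, and 2640 and 2268 CPM in macrophage-like cells. Fn1 was found in 74.9% of thinned macrophage-like cells, against 5.06% of thinned T-cell-like cells. T-cell-like cells held Spp1 in 13.1% and Sparc in 2.02% of thinned cells, and the other 6 members in under 1%.

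Spp1, the integrin and CD44 ligand osteopontin, had 11852 CPM (Empty vector) and 11545 CPM (Bmal1 WT) in melanoma-like cells, which held 70.3% of its UMIs. It had 3791 and 3190 CPM in fibroblast-like cells and 2143 and 2499 CPM in macrophage-like cells. By detection the order was the reverse. Spp1 was found in 68.1% of thinned melanoma-like cells and in 88.5% of thinned fibroblast-like cells. Among thinned melanoma-like cells the median was 2 Spp1 UMIs, the 90th percentile was 55 and the maximum was 443. Among thinned fibroblast-like cells these were 5, 27 and 107. The pericyte- or smooth-muscle-like gate held 7.22% of all Spp1 UMIs in 3 Empty vector and 5 Bmal1 WT cells. By cluster, 5 of these cells lay in the melanoma-like cluster 14, 1 in the fibroblast-like cluster 8 and 2 in the fibroblast-like cluster 19.

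**Figure D1:**
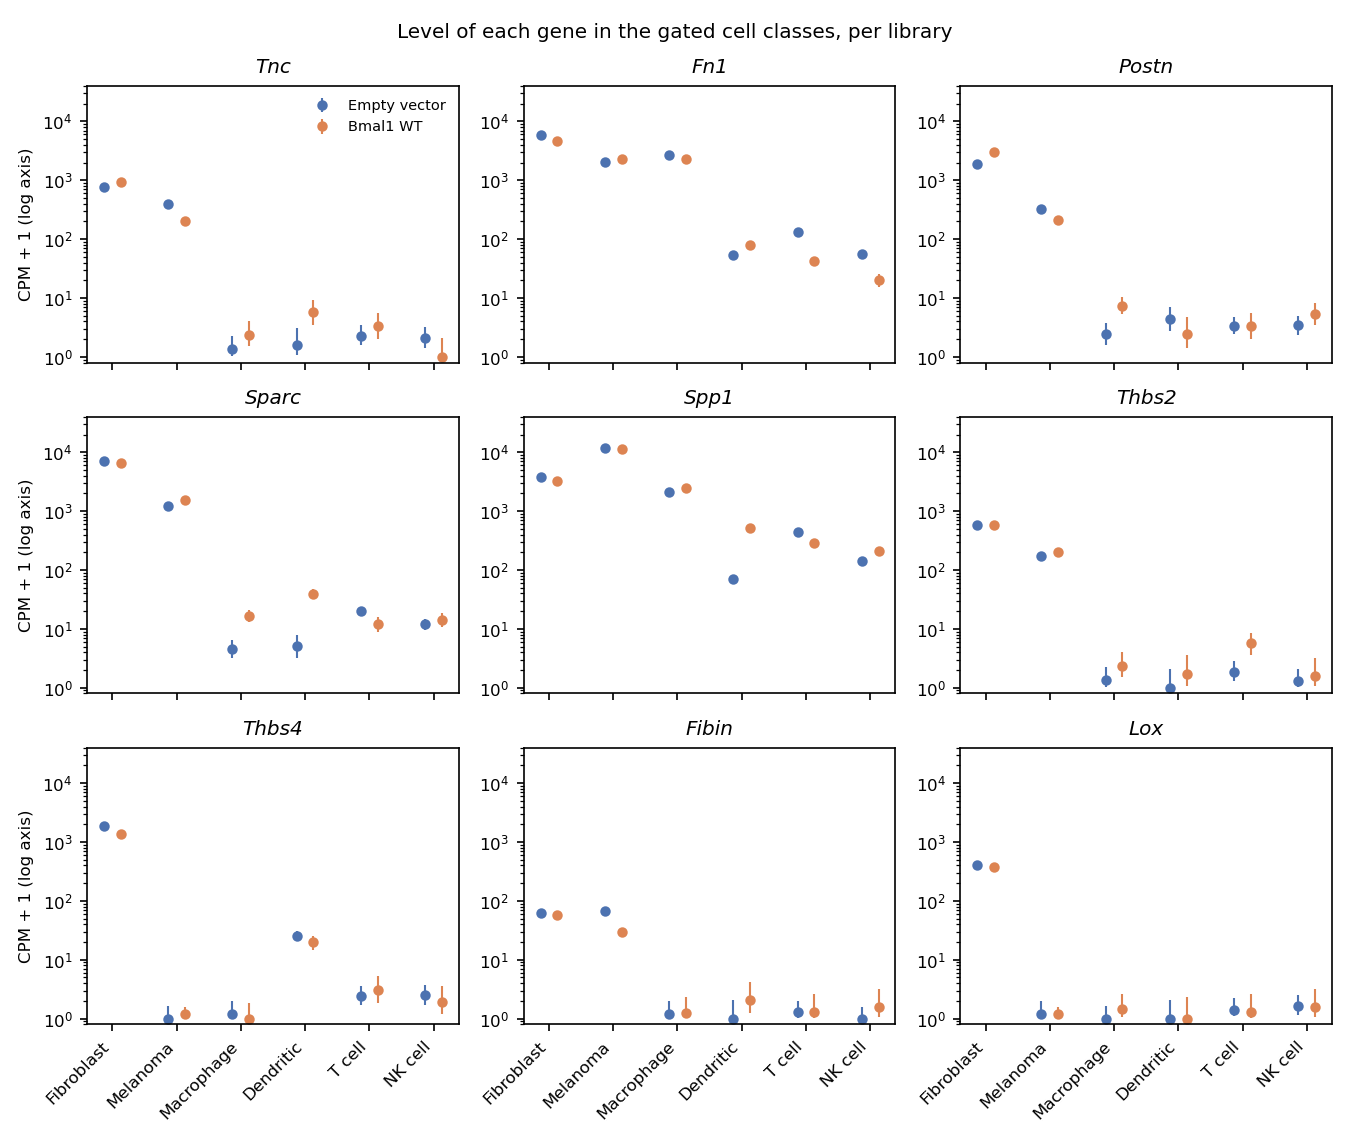
Level of each member in 6 gated classes, as CPM plus 1 on a log axis, with Empty vector in blue and Bmal1 WT in orange; bars are 95% Poisson intervals of the summed UMIs. Thbs4 and Lox are at or near the bottom of the axis in melanoma-like cells, and only Fn1 and Spp1 reach above 1000 CPM in macrophage-like cells.

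**Figure D2:**
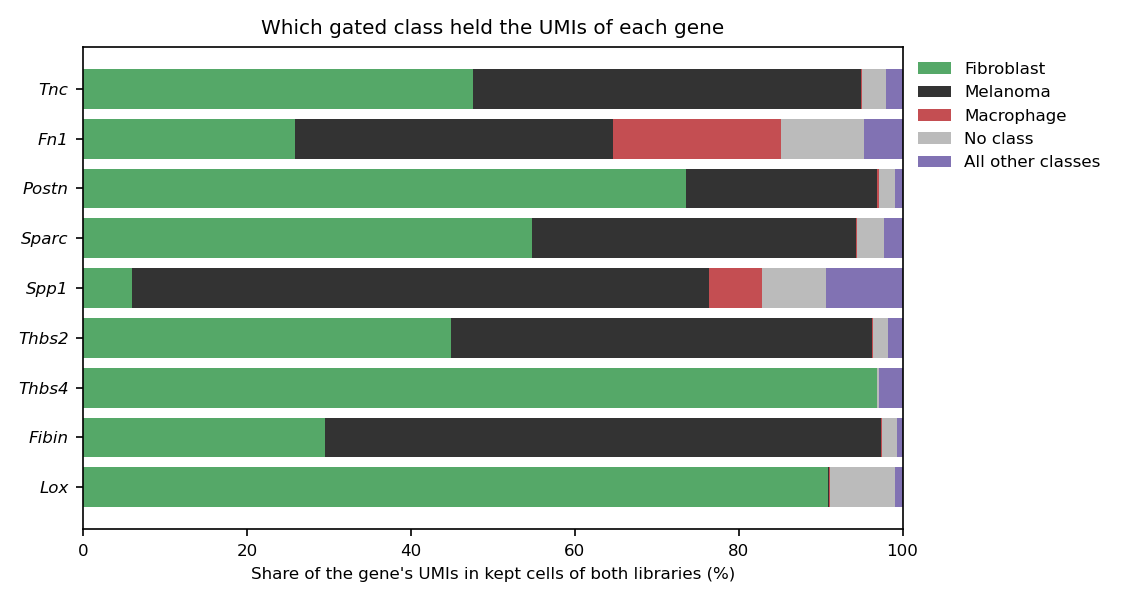
Share of each member's UMIs in all kept cells of both libraries that lay in each gated class, in percent. Fibroblast-like cells hold 96.9% of Thbs4 and 90.9% of Lox, melanoma-like cells hold 70.3% of Spp1, and macrophage-like cells hold 20.5% of Fn1.

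The members were found together in the same fibroblast-like cells more often than in the same melanoma-like cells. At 3000 UMIs a fibroblast-like cell showed a median of 6 of the 9 members, a melanoma-like cell 3, a macrophage-like cell 1 and a T-cell-like or NK-cell-like cell 0. Of fibroblast-like cells with a Tnc UMI, 90.9% also had Postn and 61.5% had Thbs2, near the 86.2% and 58.7% of all fibroblast-like cells. In melanoma-like cells the members differed in the company they kept. Of cells with a Tnc UMI, 52.4% also had Postn and 51.5% had Thbs2, against 28.2% and 28.0% of all melanoma-like cells. Fibin was found in 37.6% of cells with Postn, against 15.3% of all. Spp1 went the other way: it was found in 47.7% of melanoma-like cells with Postn and in 68.1% of all. These shares are a description over cells of 2 libraries.

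The 2 fibroblast-like clusters held the members at different levels. Cluster 19, led by Mt2, Lox, Tmem45a and the hypoxia genes Ndufa4l2 and Adm, had Lox at 1026 CPM and Thbs2 at 1042 CPM, against 132 and 372 CPM in cluster 8. Thbs4, Postn and Tnc were the reverse, with 776, 1528 and 365 CPM in cluster 19 and 1816, 2921 and 1082 CPM in cluster 8. Since clusters are built on these genes, no test was made of this difference.

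The question of where within a class the members lay was asked with splits by genes that are not members. Macrophage-like cells were split by a UMI of Arg1, the arginase of alternatively activated and tumour macrophages, within each of the 6 replicates. Both matrix genes of macrophages were higher in the cells with Arg1. Spp1 stood between 65.2 and 394 CPM in cells without Arg1 and between 2177 and 5104 CPM in cells with it, without overlap. The mean was 236 CPM ± 127 (SD, n = 6) without and 3487 CPM ± 1304 (n = 6) with Arg1. It was higher in 6 of 6 replicates by 3.97 on the log2 scale (SE 0.26, edgeR adjusted p = 6.00e-08).

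Fn1 stood between 658 and 1687 CPM without Arg1 and between 2394 and 6117 CPM with it. It was higher in 6 of 6 replicates by 1.62 on the log2 scale (SE 0.17, edgeR adjusted p = 4.46e-06). Of all 8643 genes tested, 6.19% were higher and 11.3% lower in cells with Arg1. Sparc stood at 9.78 CPM ± 16.8 with and 7.69 CPM ± 4.51 without Arg1 (n = 6). With Arg1 it had 43.9 CPM in Bmal1 WT h5 and 0 to 5.71 CPM in the other replicates. It rested on 55 UMIs with Arg1 and 29 without it. Sparc passed the filter of 50 UMIs only through the cells with Arg1, so no fold or p is given. The other 6 members were under the filter. Cells with Arg1 were deeper, with medians of 8787 UMIs against 7304 in Empty vector, and with cells thinned to 3000 UMIs the changes were 3.87 for Spp1 and 1.47 for Fn1. Both calls held under 11 of 11 alternatives, with adjusted p up to 1.36e-05 for Spp1 and 5.18e-04 for Fn1. In T-cell-like cells Spp1 stood at 433 CPM (Empty vector) and 284 CPM (Bmal1 WT), within or above the range of the macrophage-like cells without Arg1. It was uneven among T-cell-like clusters. The cluster led by Il2ra, Tnfrsf4 and Foxp3 had 513 CPM and one with Pdcd1 and Lag3 among its leading genes 326 CPM. Clusters 0, 2 and 9 had 34.3, 40.4 and 38.8 CPM. How much of these values was background was not tested.

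Other matrix genes of macrophage-like cells moved with Arg1 in both directions. Of 48 further matrix glycoproteins 6 could be tested and 4 were called higher. Ecm1 rose by 1.52, Thbs1 by 0.53 and Tgfbi by 0.53 on the log2 scale, with edgeR adjusted p from 1.5e-05 to 0.031. Ltbp3 (a latent TGF-beta binding protein) had 106 UMIs with Arg1 and 22 without it. It passed the filter of 50 UMIs only through the cells with Arg1, so no fold or p is given. Over the 6 glycoproteins tested, Ltbp3 included, the median change was 1.01, against -0.09 over all genes tested. With so few genes, and Ltbp3 among them, this median says nothing of the list as a whole. Of 19 matrix receptors 12 could be tested, and 3 rose while 3 fell. The syndecans Sdc1 and Sdc4, heparan sulfate receptors, rose by 1.88 and 1.37, and the scavenger receptor Stab1 rose by 0.84. Itga4, the integrin chain that binds fibronectin and osteopontin, fell by 1.40 (edgeR adjusted p = 1.08e-06), and the osteopontin receptor Cd44 fell by 0.59. Cd47, a receptor of thrombospondin 1, fell by 0.60. Of 17 matrix processing enzymes 5 could be tested: the prolyl hydroxylase P4ha1 rose by 0.77 and the transglutaminase Tgm2 by 0.57, while the lysyl hydroxylase Plod3 fell by 0.51.

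Melanoma-like cells were split by a UMI of Sox10, the transcription factor of the neural crest lineage, in the 4 replicates with at least 3 cells on both sides (Empty vector h1 and Bmal1 WT h3, h5 and h9). Sox10 was one of the markers that defined these cells, so the side with it is not independent of the gate, and the side without it rested on 3 to 19 cells per replicate. Tnc, Postn and Thbs2 were higher in cells with Sox10, whereas Fn1 was lower.

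Postn stood at 417, 148, 241 and 16.4 CPM in cells with Sox10 of Empty vector h1 and Bmal1 WT h3, h5 and h9, and at 111, 22.8, 65.5 and 0 CPM in the cells without it. It was higher in 4 of 4 replicates by 2.14 on the log2 scale (SE 0.37, edgeR adjusted p = 2.53e-04). Thbs2 stood at 241, 201, 214 and 40.3 CPM with Sox10 and at 103, 32.9, 9.0 and 31.2 CPM without it. It was higher in 4 of 4 replicates, on 1463 UMIs with Sox10 and 39 without it. Thbs2 passed the filter of 50 UMIs only through the cells with Sox10, so no fold or p is given.

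Tnc stood at 431, 153, 239 and 71.7 CPM with Sox10 and at 17.1, 65.9, 117 and 20.8 CPM without it. It was higher in 4 of 4 replicates by 1.76 (SE 0.39, edgeR adjusted p = 0.00530), and the ratio was largest in Empty vector h1. Its adjusted p ranged from 2.50e-04 to 0.274 over 9 alternatives. Fibin stood at 76.1, 3.36, 15.9 and 1.26 CPM with Sox10 and at 0, 5.07, 0.82 and 0 CPM without it. These levels rested on 199 UMIs with Sox10 and 3 without it, and since Fibin passed the filter only through the cells with Sox10, no fold or p is given.

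Fn1 was lower with Sox10 in 4 of 4 replicates, at 1332, 1842, 1424 and 1943 CPM against 2992, 2331, 4062 and 3899 CPM, a change of -1.01 (SE 0.29, edgeR adjusted p = 0.0392). This call held in 3 of 9 alternatives. It was lost without Bmal1 WT h3, h5 or h9 (adjusted p 0.0918, 0.338 and 0.151), and with cells thinned to 10000 UMIs the change was -0.06 (adjusted p = 0.976). That fit assigned the sides anew from the thinned cells and used 5 replicates, Empty vector h8 included. Spp1 was lower with Sox10 in 3 of 4 replicates, at 4313, 8277 and 774 CPM against 12066, 24563 and 3420 CPM in Bmal1 WT h3, h5 and h9, and higher in Empty vector h1 (9014 against 5745 CPM). Its change of -1.18 missed the threshold (SE 0.35, edgeR adjusted p = 0.0518), and it passed without Empty vector h1 (-1.73, adjusted p = 1.58e-07, range over 9 alternatives 1.58e-07 to 0.686). Sparc, at 1672 CPM ± 391 with and 1403 CPM ± 520 without Sox10 (n = 4), changed by 0.31 (SE 0.30, edgeR adjusted p = 0.862).

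Of 9704 genes tested in this split, 2.55% were higher and 0.577% lower with Sox10. Thbs4 and Lox were under the filter. Cells with Sox10 were deeper in 4 of the 4 replicates used, with medians between 35828 and 60105 UMIs against 27321 to 48526. With cells thinned to 10000 UMIs Postn and Tnc had an edgeR adjusted p of at most 0.00893. With no replicate block none of the calls of Postn, Tnc and Fn1 held (edgeR adjusted p of 0.121 or more). Over whole libraries and thinned cells, Postn had 956 CPM in Empty vector cells with Sox10 against 92.0 CPM without it, and 541 against 108 CPM in Bmal1 WT. Spp1 was the reverse, with 4865 against 8672 CPM in Empty vector, against 3533 against 14126 CPM in Bmal1 WT.

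Among the other matrix genes of melanoma-like cells, 4 of 23 tested glycoproteins were called higher with Sox10 and 2 lower. Mgp rose by 3.24, Tgfbi by 1.93 and Fbln2 by 1.79. Mgp was uneven, at 427 CPM ± 721 (SD, n = 4) with Sox10 and 34.6 CPM ± 65.9 without it. In cells without Sox10, Mgp (165 UMIs) and Fbln2 (57 UMIs) were each counted in 2 of 4 replicates. Lama4, a laminin chain of vessel and nerve basement membrane, had 782 UMIs with Sox10 and 12 without it. Dmp1, a mineral matrix protein of the same family as Spp1, was called lower on 58 UMIs without and 15 with Sox10. Lama4 and Dmp1 passed the filter of 50 UMIs only through the side where they were high, so no fold or p is given. Wisp2 was the other gene called lower, but its 52 UMIs in cells without Sox10 came from 1 of 4 replicates. Of 15 receptors the collagen receptor Ddr2 fell by 1.43. Itgb8 was called higher on 224 UMIs with Sox10 and 10 without it, and no fold or p is given for the same reason. Of 12 processing enzymes none passed the threshold, with 3 at an unadjusted p under 0.05, against 10.5% of all genes. The 23 tested glycoproteins had a median change of -0.24, against 0.13 over all genes. That median counts Lama4, Dmp1 and Wisp2 and is a description only.

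Fibroblast-like cells were split by a UMI of Adm or Ndufa4l2, genes induced by low oxygen, in 5 replicates with 3 to 11 cells on a side. Lox, itself known as a target of hypoxia-inducible factor, was higher in marked cells. It stood at 381, 87.4, 1497, 376 and 296 CPM in marked cells of Empty vector h1 and h8 and Bmal1 WT h3, h5 and h9, and at 24.2, 20.2, 264, 38.6 and 34.5 CPM in the rest. Lox was higher in 5 of 5 replicates, on 594 UMIs in marked cells and 26 in the rest. It passed the filter of 50 UMIs only through the marked cells, so no fold or p is given.

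The fit of cells thinned to 5000 UMIs used 4 replicates and 556 genes, and called 0 genes. Marked cells had medians of 20052 UMIs, the others of 5485, in Empty vector, and the medians were 19317 and 19235 in Bmal1 WT. Over whole libraries and thinned cells, Lox stood at 827 CPM (712 to 954) in 45 marked cells and 102 CPM (64.8 to 153) in 45 others of Empty vector, and at 638 CPM (559 to 725) and 144 CPM (108 to 186) in Bmal1 WT. Of the other 8 members, Fibin had 52 UMIs in marked cells and 18 in the rest. Like Lox, Fibin passed the filter only through the marked cells, so no fold or p is given. The others had changes between -0.75 (Spp1) and 0.31 (Thbs2), with edgeR adjusted p from 0.301 to 0.921. Of 4725 genes tested, 0.677% were higher and 0.0635% lower in marked cells. Of the processing enzymes the prolyl hydroxylase P4ha2 was higher in marked cells in 5 of 5 replicates, on 213 UMIs in marked cells and 19 in the rest. It too passed the filter only through the marked cells, so no fold or p is given. No glycoprotein of 27 and no receptor of 12 passed, with 8 and 0 at an unadjusted p under 0.05, against 11.5% of all genes.

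**Figure D3:**
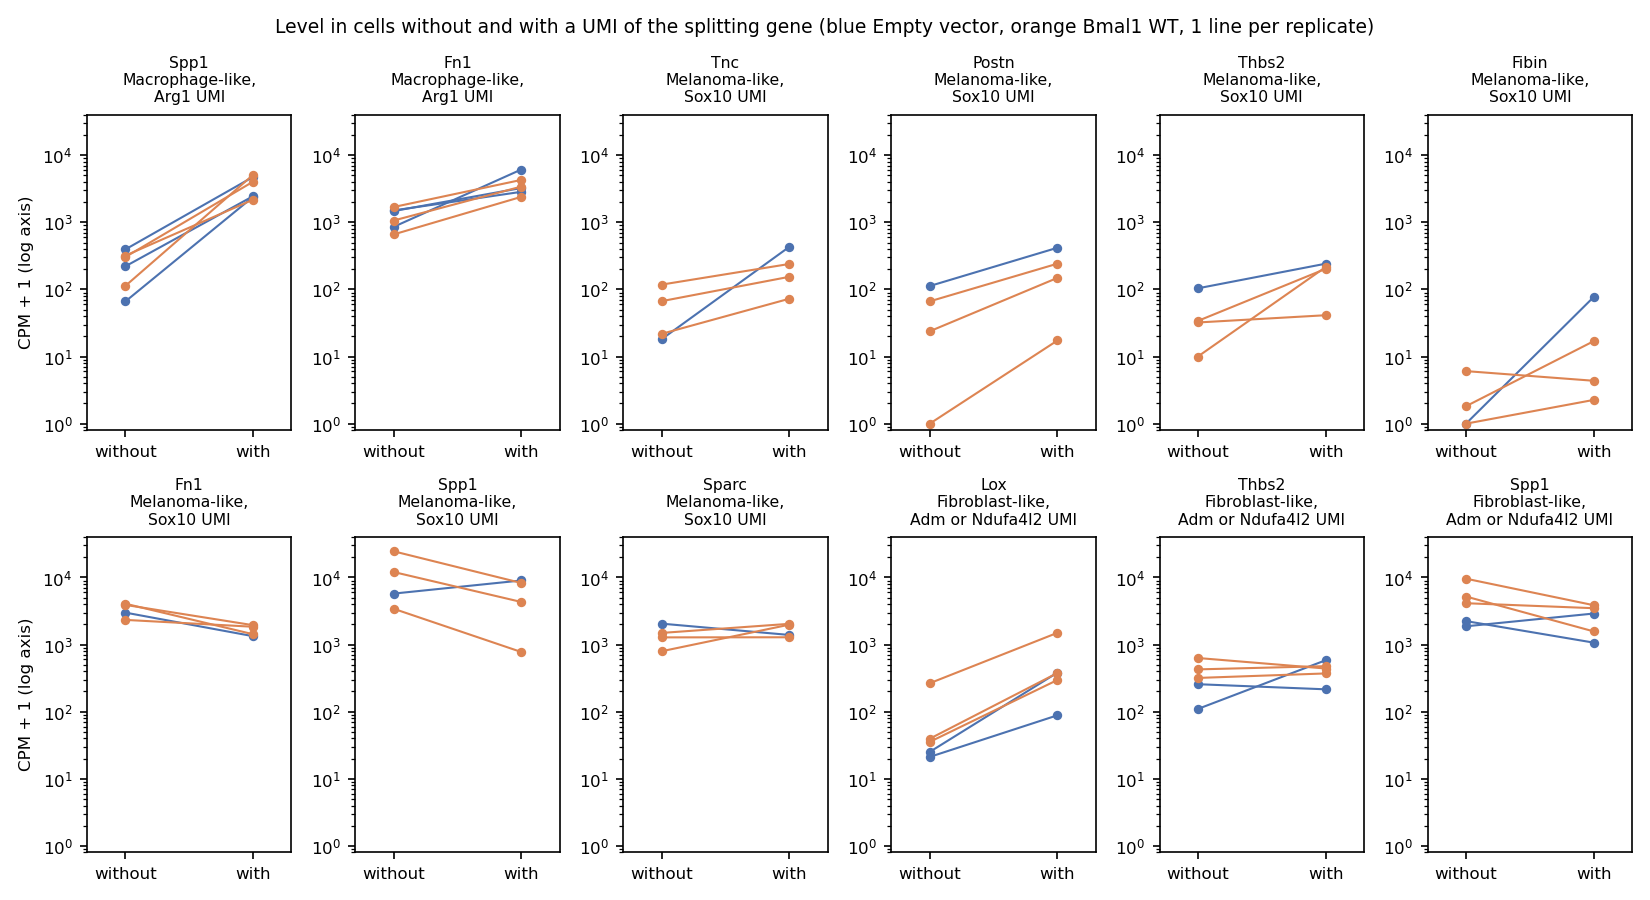
Level of members in cells without and with a UMI of the splitting gene, as CPM plus 1 on a log axis, with 1 line per replicate (blue Empty vector, orange Bmal1 WT). Spp1 and Fn1 rise in 6 of 6 macrophage-like samples with Arg1, Tnc, Postn and Thbs2 rise in 4 of 4 melanoma-like samples with Sox10, and Lox rises in 5 of 5 fibroblast-like samples with Adm or Ndufa4l2.

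The comparison of the groups asked whether the members differed with Bmal1 status in the 3 classes that make them. In macrophage-like cells Fn1 stood at 2882 CPM ± 838 in Empty vector, against 2553 CPM ± 835 in Bmal1 WT (n = 3 each), and Spp1 at 1955 CPM ± 837 and 2385 CPM ± 648. Their log2 changes from Empty vector to Bmal1 WT were -0.18 (SE 0.27, edgeR adjusted p = 0.851) and 0.29 (SE 0.29, adjusted p = 0.746), and the groups overlapped. Sparc stood at 4.44, 1.08 and 3.37 CPM in Empty vector h1, h7 and h8 and at 8.71, 35.1 and 5.23 CPM in Bmal1 WT h3, h5 and h9. The groups did not overlap, as for 17.4% of all 8643 genes tested, but Sparc rested on 19 UMIs in Empty vector and 65 in Bmal1 WT and passed the filter of 50 UMIs only through Bmal1 WT, so no fold or p is given. In cells that met the rule of 1 class only, the levels were 3.26 and 7.5 CPM. Over all genes an unadjusted p under 0.05 was reached by 11.8% and an adjusted one by 0%. T-cell-like cells, which should lack Sparc, had 19.4 CPM (Empty vector) and 11 CPM (Bmal1 WT) when called by gate. When called by cluster the order was reversed, at 2.66 CPM (Empty vector) and 9.66 CPM (Bmal1 WT). The summed fibroblast markers stood at 6.74 to 10.7 CPM in Empty vector, against 11 to 17.0 CPM in Bmal1 WT macrophage-like cells, and their part in the Sparc values was not tested.

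The share of macrophage-like cells with Arg1, which moved with Spp1 and Fn1, was 51.2%, 52.4% and 53.4% in Empty vector h1, h7 and h8 and 50%, 66.7% and 53.1% in Bmal1 WT h3, h5 and h9. Of the other matrix genes of these cells, none of 23 tested passed the threshold, and 4 had an unadjusted p under 0.05. The 3 with the smallest p were Tgm2, the integrin chain Itgav and the fibronectin receptor chain Itga5, at -0.93, -0.56 and -0.69, with edgeR adjusted p from 0.353 to 0.401.

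In fibroblast-like cells all 9 members were tested and none passed the threshold, with 8 to 14 cells per replicate. The summed macrophage markers stood at 670 CPM in Empty vector h8 and at 0 to 15.8 CPM in the other 5 samples. Fn1 stood at 5053 CPM ± 618 in Empty vector, against 4515 CPM ± 426 in Bmal1 WT (n = 3 each). Spp1 stood at 1494, 1666 and 2342 CPM in Empty vector, against 2222, 5620 and 3650 CPM in Bmal1 WT, a change of 1.06 (SE 0.32, edgeR adjusted p = 0.558). Tnc stood at 194, 736 and 266 CPM in Empty vector, against 582, 920 and 881 CPM in Bmal1 WT, a change of 1.0 (SE 0.45, edgeR adjusted p = 0.663). Lox stood at 251, 279 and 51.0 CPM and at 1276, 272 and 228 CPM, a change of 1.63 (SE 0.73, adjusted p = 0.663).

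The groups overlapped for 9 of 9 members in these fibroblast-like cells, against 12.8% of 5185 genes without overlap. An unadjusted p under 0.05 was reached by 3 members (Spp1, Tnc and Lox) and by 7.48% of genes, and an adjusted one by 0%. Counting every fibroblast-like cell, also those without a hashtag, the change was -0.25 for Spp1 and -0.08 for Lox, the opposite direction. The share of cells with Adm or Ndufa4l2, which moved with Lox, was 53.8%, 25.0% and 45.5% in Empty vector, against 78.6%, 55.6% and 76.9% in Bmal1 WT; its part in the Lox values was not tested. Of 54 other matrix genes tested none passed, and 9 had an unadjusted p under 0.05. The 3 with the smallest p were Fbln2, P4ha2 and Tgm2, of which Tgm2 stood at -2.0 (edgeR adjusted p = 0.558). Fbln2 had 370 UMIs in Bmal1 WT and 41 in Empty vector, and P4ha2 had 199 and 36. Both passed the filter of 50 UMIs only through Bmal1 WT, so no fold or p is given for them.

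In melanoma-like cells the group differences of the members are values without a test. Fibin stood at 71.4, 44.4 and 36.7 CPM in Empty vector h1, h7 and h8 and at 3.88, 12.2 and 1.19 CPM in Bmal1 WT h3, h5 and h9, without overlap, as for 9.73% of the 9999 genes in this fit. Its log2 change was -2.96 (SE 0.60). Empty vector h7 rested on 4 melanoma-like cells, and the other replicates on 22 to 68. Tnc stood at 405, 163 and 526 CPM in Empty vector, against 127, 208 and 68.8 CPM in Bmal1 WT, a change of -1.53 (SE 0.44), and the groups overlapped through Empty vector h7.

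The hashtagged cells were the minority of melanoma-like cells, since 270 of 443 carried no single hashtag. In those 270, Fibin stood at 94.8 CPM (Empty vector) and 50.6 CPM (Bmal1 WT), and Tnc at 236 CPM (Empty vector) and 234 CPM (Bmal1 WT). In the hashtagged cells summed per library, Tnc stood at 462 and 165 CPM. The change over all cells of each library was -1.18 for Fibin and -0.98 for Tnc. The share of melanoma-like cells with Sox10, which moved with Tnc, was 83.3%, 75.0% and 91.3% in Empty vector, against 59.1%, 72.1% and 88.5% in Bmal1 WT; its part in the group values was not tested.

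The remaining 5 members that could be fitted in melanoma-like cells overlapped between the groups. Spp1 ranged from 7232 to 17764 CPM in Empty vector, against from 925 to 12321 CPM in Bmal1 WT, with the lowest level in h9. Postn ranged from 88.7 to 398 CPM and from 15.4 to 197 CPM, and Thbs2 from 29.6 to 232 CPM and from 39.7 to 163 CPM. The means were 2279 CPM ± 748 and 2042 CPM ± 45.1 for Fn1 and 1378 CPM ± 95.5 and 1612 CPM ± 300 for Sparc (n = 3 each). Barcodes with under 1% mitochondrial UMIs, 124 of the 443 melanoma-like cells, held less of most members: Spp1 stood at 1579 and 640 CPM in those of Empty vector and Bmal1 WT and Tnc at 22.4 and 12.6 CPM, but Fibin at 99.8 and 25.2 CPM.

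Between the groups, 0 of 51 other matrix genes of melanoma-like cells passed the threshold, against 0% of all 9999 genes, and 5 had an unadjusted p under 0.05, against 4.03%. The smallest p were those of the heparan sulfatase Sulf2 at -0.92, the lysyl hydroxylase Plod1 at 0.77 and Tgfbi at -1.04, with an edgeR adjusted p of 1.0 for each.

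**Figure D4:**
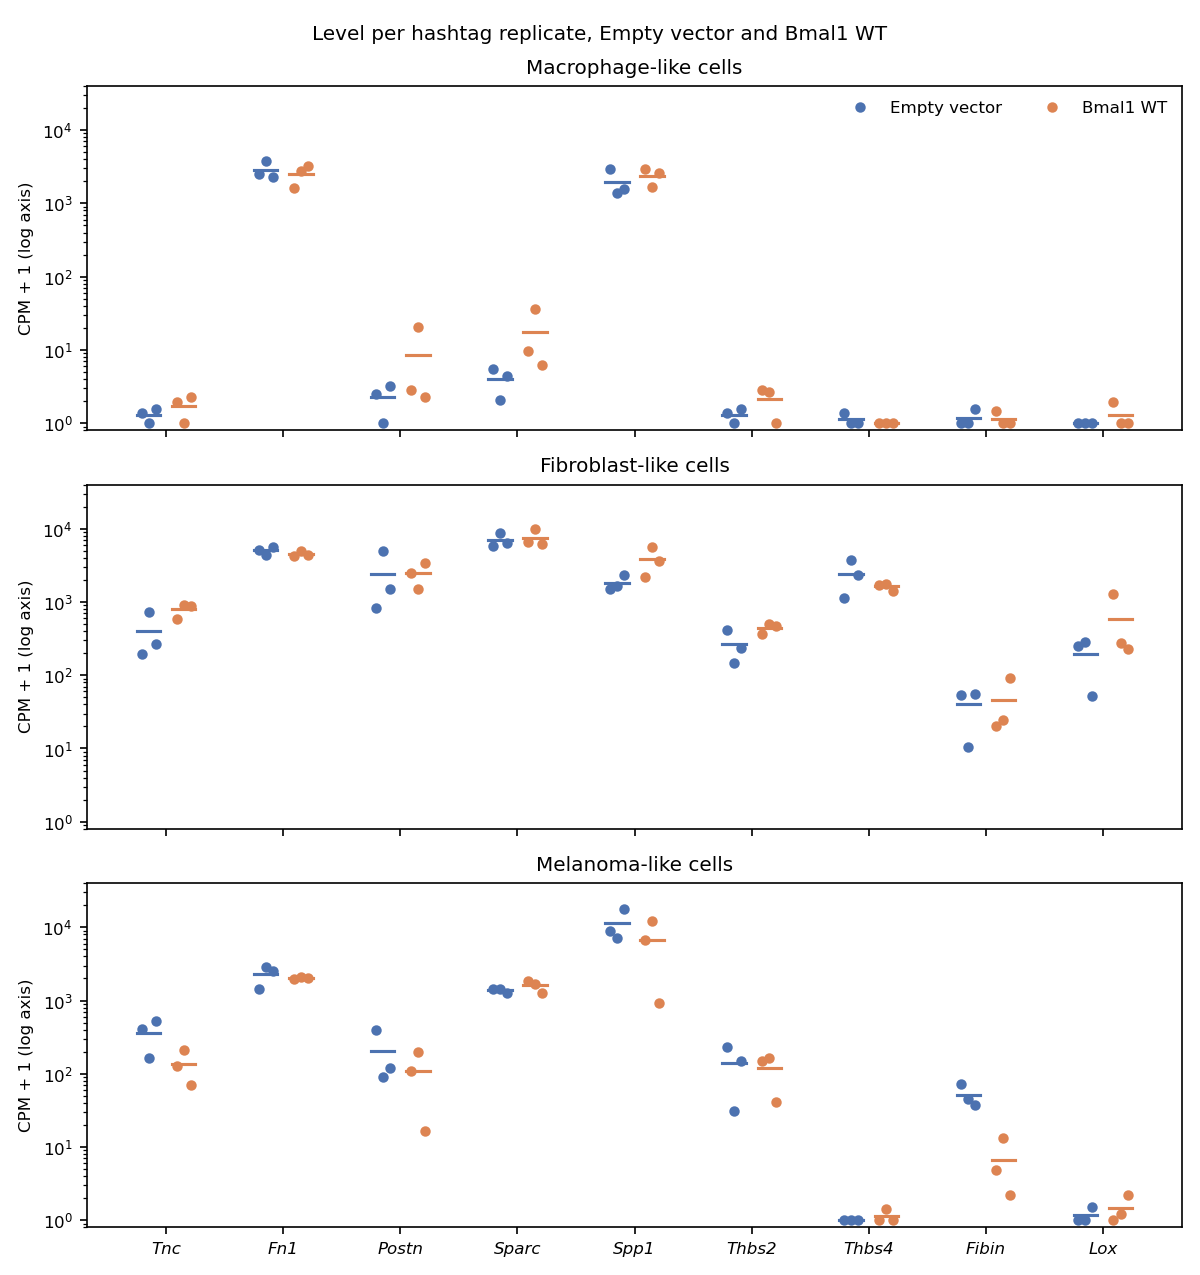
Level of each member in each hashtag replicate, as CPM plus 1 on a log axis, for macrophage-like, fibroblast-like and melanoma-like cells; points are replicates and bars their mean (blue Empty vector, orange Bmal1 WT). The points of the groups overlap except for Sparc in macrophage-like cells and Fibin in melanoma-like cells.

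Most of the other matrix genes were also highest in fibroblast-like cells. Of the 48 further glycoproteins, 32 were highest in fibroblast-like cells, 6 in melanoma-like, 1 in macrophage-like, 1 in dendritic-like and 1 in T-cell-like cells, while 7 had under 50 UMIs. Of 17 processing enzymes 11 were highest in fibroblast-like cells, and of 19 receptors 6 were. Likeness in level was measured as Pearson's r of log2 of CPM plus 10 over 12 points (6 classes in 2 libraries), which share library and depth. The genes most like Lox were Mfap2, a microfibril protein, and Tspan11 (r above 0.999 for both). Those most like Thbs4 were Nbl1 and Rsph9, those most like Sparc Prrx1 and Etv4, and those most like Tnc Egflam and Pcdhb16. Postn was most like Spats2l and Ptn, Thbs2 most like Lhfp and Lama4, and Fibin most like Morc4 and Fxyd1. Fn1 was most like Lrp1 (r = 0.982) and Adam9 (0.980), and Spp1 most like Pgp (0.964) and Gde1 (0.963), the lowest values of any member.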

How the data were processed

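Single-cell libraries labelled Empty vector and Bmal1 WT were analysed, each with 3 hashtag replicates. The authors deposited raw UMI counts per gene and barcode, made with Cell Ranger on the mm10 genome, per the labels' processing notes. For strand use and annotation the sources used here gave nothing. The 2 RNA matrices held 31053 genes each. The matrix deposited for Bmal1 bHLH was a copy of that for Bmal1 WT and was counted once.

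Barcodes with at least 200 genes and at most 20% mitochondrial UMIs were kept. Hashtags were called with a Gaussian mixture (scikit-learn 1.9.0). A cell entered a class when at least 3 of its markers were detected and that class had the highest scaled marker score. The fibroblast gate also required Dcn, Lum and Col1a2 together at 10 or more UMIs per 10000, and 32 cells with at least 3 fibroblast markers lay between 5 and 20. Doublets were kept, apart from cells with several hashtags, which entered no replicate. Clusters came from scanpy 1.11.5 and igraph 0.11.9 (30 principal components, 15 neighbours, resolution 1).

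UMIs were summed per replicate and class. Genes with at least 50 UMIs entered the quasi-likelihood test of edgeR (version 4.0.16 in R 4.3.3) with total UMIs as library size and Benjamini-Hochberg adjustment over all genes tested and a threshold of 0.05. Splits within a class used replicates with at least 3 cells on both sides and the replicate as a block, since both sums came from the same hashtag. CPM is a gene's UMIs scaled to a fixed total, and intervals are exact Poisson or Clopper-Pearson 95% intervals that cover counting error only. DESeq2 1.42.0, TMM scaling, no gene filter, no block, thinning, clusters, a stricter cell filter and leaving out replicates were alternatives, and 2 further ones were added after seeing the data: leaving out cells that met several gates, and leaving out melanoma-like barcodes under 1% mitochondrial UMIs. The tests were tested on simulated data before use.

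The members and lists were chosen with earlier results of these data known, and the gates were set after the cells had been seen. Named genes were the 9 members, every listed gene past the threshold in a comparison (otherwise the 3 with the smallest p), and the 2 genes most like each member in level across classes.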

Additional observations from a re-analysis of the deposited data

Results flagged for a closer look

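Log2 ratios here compare cells with and without the splitting gene in 1 replicate, with 10 CPM added to each level, and chance alone marks about 1 in 20 groups as holding an outlying sample. For Tnc in melanoma-like cells split by Sox10, Empty vector h1 stood apart at 4.02, while Bmal1 WT h3, h5 and h9 lay between 0.97 and 1.41. In the split of fibroblast-like cells by Adm or Ndufa4l2, the Tnc ratio averaged 0.55 in the 2 Empty vector samples and -1.31 in the 3 Bmal1 WT samples, with opposite signs in all 5, and the difference between the groups was not tested. In the same split Sparc was lowest in Bmal1 WT h9 at -0.76 (median 0.06, n = 5), and Thbs2 was highest in Empty vector h1 at 2.32 (median 0.16, n = 5).

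Thbs4 was also counted in dendritic-like cells, which entered no comparison, at 24.5 CPM in the Empty vector library and 18.7 CPM in Bmal1 WT. Thinned to 3000 UMIs, 4.68% of 235 and 6.92% of 130 dendritic-like cells held a Thbs4 UMI, against 0.643% of 1088 T-cell-like cells and 0 of 386 melanoma-like cells. The level was 48.5 CPM in the dendritic-like cluster led by Ccl22, Fscn1 and Ccr7.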

How the results depend on the processing

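No paired analysis was possible between Empty vector and Bmal1 WT because the groups share no hashtag number. In macrophage-like cells 0 genes passed between the groups, against 31 with DESeq2 and 196 with no filter on genes; in fibroblast-like cells 0, against 11 and 209; and in melanoma-like cells 0, against 5 and 30. Leaving out single replicates gave 0 to 1 genes in fibroblast-like and in melanoma-like cells. Without the gene filter Tnc (adjusted p = 0.0281, range to 0.988), Spp1 (0.00120, range to 0.892) and Lox (2.57e-05, range to 1.0) passed in fibroblast-like cells.

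The split by Arg1 called 1512 genes, against 879 with DESeq2, 771 with no replicate block and 890 in thinned cells, and 1050 to 1560 without single replicates. That by Sox10 called 303, against 110, 22 and 94, and 73 (without Bmal1 WT h5) to 294. That by Adm or Ndufa4l2 called 35, against 64 with TMM scaling, 163 with no gene filter, 0 in thinned cells (58 of 556 at an unadjusted p under 0.05), and 10 (without Bmal1 WT h9) to 67 (without Empty vector h8). The cause of these shifts was not tested.

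Among the members tested, the directions that turned were of those past no threshold. In fibroblast-like cells between the groups, Postn came to -0.63 and Sparc to -0.42 without cells meeting several gates, and over every cell Sparc came to -0.12, Spp1 to -0.25, Thbs2 to -0.010, Fibin to -0.070 and Lox to -0.078. Without single replicates Postn ranged from -0.36 to 1.11, Sparc from -0.15 to 0.29 and Fibin from -0.22 to 0.57, and Fn1 of macrophage-like cells from -0.39 to 0.086. Sparc with Arg1 came to 0.40 with no replicate block and ranged from -0.22 to 0.16. Sparc with Sox10 ranged from -0.032 to 0.60. With Adm or Ndufa4l2, Fn1 came to 0.17 in thinned cells, Sparc ranged from -0.15 to 0.10 and Thbs2 from -0.10 to 0.54. In melanoma-like cells, where the group values carry no test, Fn1 ranged from -0.47 to 0.38 and Thbs2 from -0.80 to 0.20 over 14 alternatives. Of the alternatives for single members, 369 kept direction and call, 18 lost a call, 10 gained one, 13 moved and 23 turned. The number of cells limits the splits of fibroblast-like and melanoma-like cells, where some sums rest on 3 cells.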
